A study of Homo sapiens with 8 samples.

Results

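The comparison described here asked whether lenalidomide changed gene expression by different amounts in BCBL1 and BC3, 2 human cell lines of primary effusion lymphoma. Its members were all 8 arrays of the series, 2 for each of the 4 groups: BC3 with DMSO, BC3 with 5 µM lenalidomide, BCBL1 with DMSO and BCBL1 with 5 µM lenalidomide. DMSO is the drug's solvent and served as the control, and the culture medium was otherwise the same. For each of 12864 genes the difference was the lenalidomide effect in BCBL1 minus the lenalidomide effect in BC3, on log2 levels. A value above 0 means that the effect was higher in BCBL1, and the same number is the gap between the lines under lenalidomide minus the gap under DMSO. The series text calls the arrays of a group technical replicates. The p-values below therefore measure the spread between arrays, and a difference between the lines cannot be told apart from a difference between the single cultures behind each group. No label states how long the cells were exposed.

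Primary effusion lymphoma is a B-cell lymphoma of the body cavities whose cells carry Kaposi sarcoma herpesvirus and look like late B cells on the way to plasma cells. The drug acts through cereblon, which presents substrates to a CUL4 ubiquitin ligase, and sends the transcription factors Ikaros (IKZF1) and Aiolos (IKZF3) to the proteasome. These factors repress many genes in B cells, interferon-response genes among them, and sustain the IRF4 and MYC programmes of plasma-cell tumours.

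Median intensity per array ran from 137 to 153, with 47.0% to 51.2% of probes above background. Across genes, which are no independent replicates, r was 0.994 to 0.995 within a group and 0.922 to 0.930 from line to line. The plasma-cell markers SDC1, IRF4, PRDM1, CD38 and TNFRSF17 were above background on all 8 arrays, PAX5 on 0 and the B-cell antigen gene MS4A1 on 2. CD79A, a B-cell receptor subunit, was above background on 7 arrays, at a normalized log2 level of at most 6.81.

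The lenalidomide effect differed between the lines for 59 of 12864 genes (0.459%) at an adjusted p under 0.05 by limma, with 22 differences above 0 (0.171%) and 37 below 0 (0.288%). The median difference over all genes was 0.002 on the log2 scale, and 50.2% of genes had a value above 0. Called differences had a size of 0.83 or more, and the largest value that was not called was 1.31. The 59 genes fell into 4 classes by their effects within each line. There were 24 BC3-specific genes and 8 BCBL1-specific genes, called in 1 line and with an unadjusted p of 0.05 or more in the other. Another 16 were graded, with the same direction and an unadjusted p under 0.05 in both lines, and 11 were opposed, with opposite directions and an unadjusted p under 0.05 in both. Of the 32 line-specific genes 30 rose and 2 fell, and all 16 graded genes were higher with lenalidomide in both lines. Only 8 of the 16 graded genes were called in both lines. Within a line, 4.37% of all genes were called in BC3 and 2.9% in BCBL1.

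The count of 59 depended on single arrays and on how dim signals were treated. It was 25 and 36 without array a or b of BC3 with DMSO, 43 and 31 without array a or b of BC3 with lenalidomide, 42 and 45 without array a or b of BCBL1 with DMSO, and 32 and 30 without array a or b of BCBL1 with lenalidomide. It was 21 with a smaller background offset of 16 and 30 on the authors' own log2 table. On that table it was 9 when the replicate number was fitted as a block. Of the 59 genes 20 were called in all 8 of these leave-one-out fits: 10 of the 16 graded, 7 of the 24 BC3-specific, 3 of the 8 BCBL1-specific and 0 of the 11 opposed genes. Of the 59 genes 32 were above background in all 4 groups, 9 in 3, 12 in 2 and 6 in 1 group only: TGM2, OR11H6, TRIML2, VIL1, PRR20A and IL4I1. A gene that passed the filter through its high group alone had to differ, so the calls of these 6 support nothing further.

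**Figure D1:**
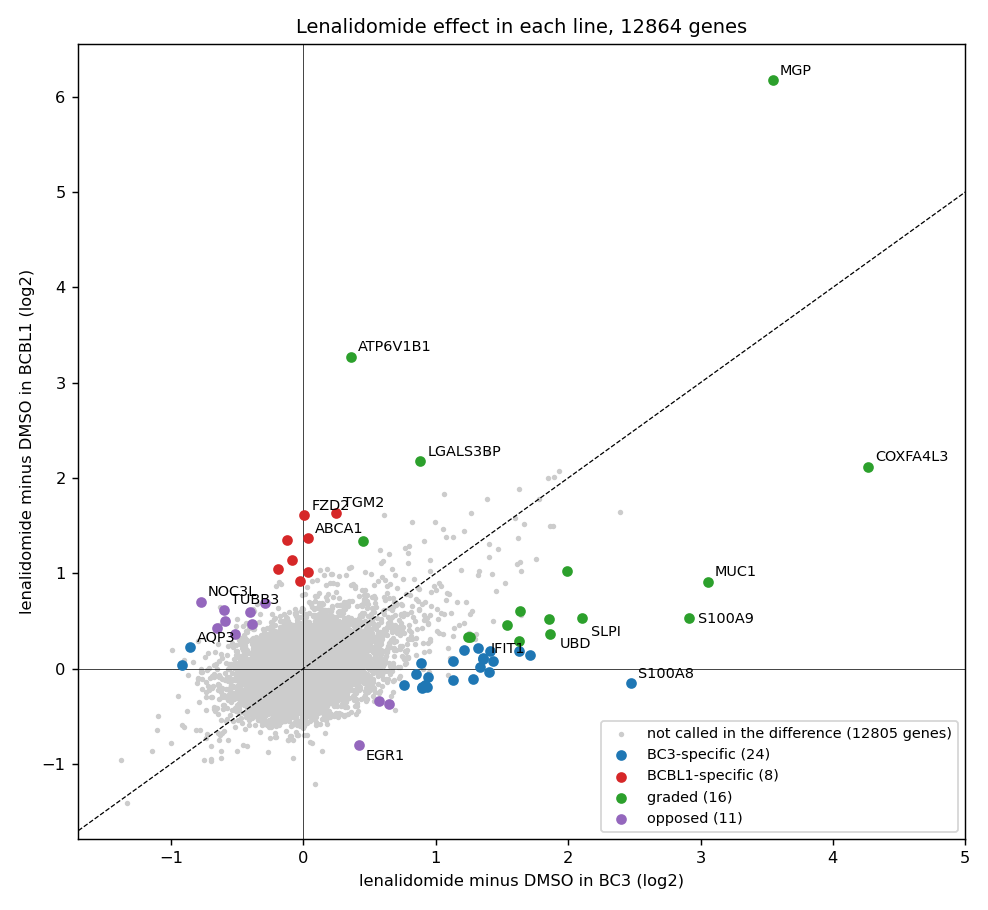
Lenalidomide effect (log2) in BC3 on the horizontal axis and in BCBL1 on the vertical axis, 1 point per gene; the dashed line marks equal effects. The 59 called genes are coloured by class. MGP (3.55 in BC3, 6.17 in BCBL1) and ATP6V1B1 (0.36 and 3.27) lie above the line, and COXFA4L3 (4.26 and 2.12) lies below it.

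Of all genes tested, ATP6V1B1 had the highest difference. It encodes a B subunit of the vacuolar proton pump, an isoform best known from acid-secreting cells of the kidney. Its normalized log2 levels were 6.55 and 6.19 in BC3 with DMSO, 6.72 and 6.74 in BC3 with lenalidomide, 6.77 and 6.92 in BCBL1 with DMSO and 10.16 and 10.07 in BCBL1 with lenalidomide. Only the BCBL1 arrays with lenalidomide were high, and the difference was 2.91 ± 0.19 (adjusted p = 1.89e-05). In BC3 ATP6V1B1 was not above background on both DMSO arrays, and its level with lenalidomide was at least 1.196-fold higher there, without a call (adjusted p = 0.186). Of the 16 vacuolar pump subunits tested ATP6V1B1 was the 1 called (6.25%, against 0.459% of all genes). In these bulk samples more cells with a transcript and more of it per cell cannot be told apart. The next highest subunit had a difference of 0.24.

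MGP encodes matrix Gla protein, a vitamin K-dependent inhibitor of calcification. Its levels were 6.85 and 6.59 in BC3 with DMSO, 10.19 and 10.35 in BC3 with lenalidomide, 6.81 and 6.88 in BCBL1 with DMSO and 13.08 and 12.96 in BCBL1 with lenalidomide. The lines started level and both rose, by 3.55 ± 0.13 in BC3 and 6.17 ± 0.13 in BCBL1, and the difference was 2.63 ± 0.18 (adjusted p = 1.89e-05). Another MGP probe gave 2.34, also called in the fit over probes. LGALS3BP, a secreted glycoprotein that binds galectins and is induced by interferon, rose by 0.88 ± 0.13 in BC3 and 2.18 ± 0.13 in BCBL1, a difference of 1.30 ± 0.19 (adjusted p = 0.00728). BC3 had more of it under both treatments, at 9.72 and 9.95 with DMSO against 7.02 and 6.81 in BCBL1. On linear intensity, normalized or as deposited, the rise of LGALS3BP was larger in BC3, so its direction depends on the scale. SNAI2, a zinc-finger repressor of epithelial genes, rose by 1.33 ± 0.12 in BCBL1 and had 0.45 ± 0.12 in BC3, the smallest called graded difference above 0, at 0.88 ± 0.17 (adjusted p = 0.0398). SNAI2 was called in 0 of the 8 leave-one-out fits.

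The 8 BCBL1-specific genes all rose in BCBL1, with differences of 0.94 to 1.604. FZD2, a receptor for Wnt ligands, had levels of 6.07 and 6.01 in BC3 with DMSO, 6.09 and 6.001 in BC3 with lenalidomide, 10.84 and 10.55 in BCBL1 with DMSO and 12.33 and 12.28 in BCBL1 with lenalidomide. It was not above background in BC3 under either treatment and rose by 1.61 ± 0.13 in BCBL1 from a high level. TGM2, the crosslinking enzyme transglutaminase 2, had levels of 5.99 and 6.34 in BC3 with DMSO, 6.30 and 6.52 in BC3 with lenalidomide, 6.21 and 6.30 in BCBL1 with DMSO and 7.77 and 8.02 in BCBL1 with lenalidomide. It stood above background on both arrays in BCBL1 with lenalidomide only, where it rose at least 2.80-fold. TGM2 passed the filter through that group alone, so its call says no more than that. The other TGM2 probes, not above background on both arrays of any group, had differences of 0.13 and 0.04. ABCA1, which exports cholesterol from cells, had levels of 6.47 and 6.57 in BC3 with DMSO, 6.54 and 6.57 in BC3 with lenalidomide, 7.09 and 6.89 in BCBL1 with DMSO and 8.20 and 8.51 in BCBL1 with lenalidomide. The BC3 arrays did not separate by treatment, and the difference was 1.33 ± 0.19 (adjusted p = 0.00707). The glucose transporter gene SLC2A3 rose by 1.05 ± 0.14 in BCBL1 and had -0.19 ± 0.14 in BC3. CCN4, a secreted matricellular protein of the Wnt response, rose by 1.14 ± 0.12 in BCBL1 and had -0.09 ± 0.12 in BC3; a dimmer CCN4 probe had a difference of 0.28 that was not called. ARL14EPL rose by 1.35 ± 0.15, and a dimmer probe, also called, gave a difference of 1.35. The transporter gene SLCO3A1 and TRIML2 rose by 0.92 ± 0.12 and 1.02 ± 0.14. Like TGM2, TRIML2 was above background on both arrays in BCBL1 with lenalidomide only, where it rose at least 1.95-fold. The dimmer SLCO3A1 probes gave differences of 0.28 and 0.43, not called, against 0.94. SLC2A3 was called in 3 of the 8 leave-one-out fits, and SLCO3A1 and TRIML2 in 1 each. FZD2, TGM2, SLC2A3, CCN4 and TRIML2, 5 of the 8, were not above background in BC3 under either treatment, and a difference against such a line rests on signal near the array's background.

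S100A8 and S100A9 encode the subunits of calprotectin, an abundant protein of neutrophils and monocytes. S100A8 had levels of 6.69 and 6.52 in BC3 with DMSO, 9.06 and 9.10 in BC3 with lenalidomide, 6.73 and 6.31 in BCBL1 with DMSO and 6.29 and 6.45 in BCBL1 with lenalidomide. It was high on the BC3 arrays with lenalidomide alone, rose by 2.48 ± 0.15 there, and was not above background in BCBL1 under either treatment. Its difference, -2.63 ± 0.21 (adjusted p = 5.42e-05), was the lowest of all genes. S100A9 had levels of 6.70 and 6.92 in BC3 with DMSO, 9.83 and 9.62 in BC3 with lenalidomide, 6.54 and 6.25 in BCBL1 with DMSO and 6.91 and 6.95 in BCBL1 with lenalidomide. It rose by 2.92 ± 0.14 in BC3 and had 0.53 ± 0.14 in BCBL1, where it was above background on both arrays with lenalidomide only, and its difference was -2.38 ± 0.20 (adjusted p = 7.60e-05). The other 9 S100 genes tested had differences from -0.52 to 0.87, and 0 were called. The highest of them, S100A10, had an adjusted p of 0.0593. S100A2, which rose in both lines, had a difference of 0.11 with a 95% interval of -0.29 to 0.52.

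The stretches before the S100A8 and S100A9 starts are shown because these neighbouring genes gave the lowest differences. They come from RefSeq's promoter table (GRCh38.p14), 250 bases 5′ to 3′ on the gene's own strand, with the Ikaros core motif TGGGAA in capitals. The motif was searched on both strands from 250 bases before to 50 after the first listed start, and each of these windows held it 1 time. It occurs in 24.3% of the 27305 promoters of the table, so its presence is common. Of the 10 genes with ordinary symbols and the lowest differences 9 had a promoter there, and 2 of the 9 held TGGGAA.
S100A8 (chr1:153391189-153391438, minus strand): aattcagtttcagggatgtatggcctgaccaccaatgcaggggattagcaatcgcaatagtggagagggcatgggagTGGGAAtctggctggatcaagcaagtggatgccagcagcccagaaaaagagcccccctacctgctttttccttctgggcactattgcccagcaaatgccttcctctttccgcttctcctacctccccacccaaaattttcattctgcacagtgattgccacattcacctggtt
S100A9 (chr1:153357604-153357853, plus strand): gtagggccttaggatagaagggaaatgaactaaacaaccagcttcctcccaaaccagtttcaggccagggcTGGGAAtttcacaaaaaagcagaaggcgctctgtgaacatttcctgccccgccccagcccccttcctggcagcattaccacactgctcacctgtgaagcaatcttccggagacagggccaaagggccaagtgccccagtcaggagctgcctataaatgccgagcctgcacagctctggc

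COXFA4L3, also known as C15orf48, encodes a small mitochondrial protein related to a subunit of cytochrome c oxidase. Its levels were 8.70 and 8.95 in BC3 with DMSO, 13.13 and 13.04 in BC3 with lenalidomide, 11.23 and 10.98 in BCBL1 with DMSO and 13.25 and 13.19 in BCBL1 with lenalidomide. The lines differed with DMSO and reached nearly the same level with lenalidomide, and the difference of their rises was -2.15 ± 0.19 (adjusted p = 1.15e-04). Both dimmer COXFA4L3 probes had smaller differences, -0.86 and -0.49, which were not called. The brightest COXFA4L3 signal was 23.2% of its array's maximum. MUC1, a cell-surface mucin, had levels of 7.37 and 7.07 in BC3 with DMSO, 10.43 and 10.13 in BC3 with lenalidomide, 10.57 and 10.70 in BCBL1 with DMSO and 11.59 and 11.49 in BCBL1 with lenalidomide. It rose by 3.06 ± 0.14 in BC3 and 0.91 ± 0.14 in BCBL1, a difference of -2.14 ± 0.20 (adjusted p = 2.18e-04). Of 2 dimmer MUC1 probes 1 had a difference of -1.03 and the other 0.14, neither called. SLPI, a secreted inhibitor of neutrophil proteases, rose by 2.10 ± 0.13 in BC3 and 0.53 ± 0.13 in BCBL1, a difference of -1.57 ± 0.19 (adjusted p = 0.00195). GPBAR1, the bile acid receptor TGR5, rose by 1.64 ± 0.11 and 0.60 ± 0.11. When normalized levels were taken back to a linear scale, MUC1, SLPI and GPBAR1 gained more in BCBL1, while on intensities as deposited all 3 gained more in BC3, as on the log2 scale. LGALS3BP was the 1 called gene with the opposite sign on deposited intensities, and the other 58 kept theirs.

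Other graded genes had larger effects in BC3. UBD, the interferon- and TNF-inducible ubiquitin-like protein FAT10, had levels of 7.11 and 6.98 in BC3 with DMSO, 8.93 and 8.90 in BC3 with lenalidomide, 6.63 and 6.26 in BCBL1 with DMSO and 6.69 and 6.94 in BCBL1 with lenalidomide. The BC3 arrays with lenalidomide stood above the other 6, and the difference was -1.50 ± 0.20 (adjusted p = 0.0051). CFB, complement factor B, rose by 1.99 ± 0.12 in BC3 and 1.02 ± 0.12 in BCBL1, a difference of -0.97 ± 0.18 (adjusted p = 0.0318). The gene of the death ligand TRAIL, TNFSF10, rose by 1.54 ± 0.13 in BC3 against 0.46 ± 0.13 in BCBL1, a difference of -1.08 ± 0.18 (adjusted p = 0.0188). GSDMB, a gasdermin, rose by 1.86 ± 0.12 against 0.52 ± 0.12. CAV1, the coat protein of caveolae, rose by 1.63 ± 0.12 in BC3 with 0.29 ± 0.12 in BCBL1, a difference of -1.34 ± 0.16 (adjusted p = 0.00211), while its dimmer probe gave -0.58, which was not called. MAGEH1 and the vitamin B12 carrier gene TCN2 had differences of -0.92 and -0.93; a dimmer MAGEH1 probe had the opposite sign, at 0.13. MAGEH1 and TCN2 were called in 0, CFB in 1 and TNFSF10 in 2 of the 8 leave-one-out fits.

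Of the 24 BC3-specific genes 22 rose in BC3. Beside S100A8 the lowest differences belonged to C6orf58, at -1.57 ± 0.19 (adjusted p = 0.00211), and to TSC22D1, ARTN and DLX1; C6orf58, outside the naming rule, was added after its values were seen. TSC22D1, a leucine-zipper transcription regulator, had -1.44 ± 0.21 (adjusted p = 0.00728). ARTN, the neurotrophic ligand artemin, had -1.44 ± 0.18 (adjusted p = 0.00276), and DLX1, a homeobox factor of the developing forebrain, had -1.39 ± 0.16 (adjusted p = 0.00165). A dimmer DLX1 probe gave -0.12 and a dimmer ARTN probe -1.03, neither called, and of 3 dimmer TSC22D1 probes 1 was called, at -1.53. ARTN levels were 6.83 and 6.56 in BC3 with DMSO, 8.32 and 8.33 in BC3 with lenalidomide, 7.11 and 7.01 in BCBL1 with DMSO and 7.15 and 7.35 in BCBL1 with lenalidomide. CEL, the bile salt-activated lipase of pancreas and milk, rose by 1.43 ± 0.12 in BC3 and had 0.08 ± 0.12 in BCBL1, a difference of -1.35 ± 0.17 (adjusted p = 0.00211). RHOC, a small GTPase, rose by 1.32 ± 0.15 in BC3 with a difference of -1.10 ± 0.22 (adjusted p = 0.0492), and kept its call in 2 of the 8 leave-one-out fits. A dimmer RHOC probe had a difference of -0.39, not called. That probe was higher with lenalidomide in both lines, by 0.93 in BC3 and 0.55 in BCBL1, so the class of RHOC depends on the probe.

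Of the remaining BC3-specific genes, several are described here, chosen after their values were seen. IL4I1, a secreted amino acid oxidase, and KYNU, the kynureninase of tryptophan breakdown, rose by 1.13 ± 0.14 and 1.13 ± 0.13 in BC3 and had -0.12 ± 0.14 and 0.08 ± 0.13 in BCBL1. LAG3, an inhibitory receptor of T cells, rose by 1.22 ± 0.12 and had 0.19 ± 0.12 in BCBL1. The transcription regulators CITED2 and CEBPA rose by 0.92 ± 0.12 and 0.76 ± 0.12 in BC3, with -0.17 ± 0.12 and -0.17 ± 0.12 in BCBL1. FILIP1L, PRTFDC1, PLXDC2, BASP1, SYT4, LVRN and GALM rose by 0.85 to 1.41, and PRR20A, whose near-identical copies could share its probe, by 0.94 ± 0.15. IL4I1 and PRR20A were above background on both arrays in BC3 with lenalidomide only, where they rose at least 1.75-fold and 1.78-fold. Both passed the filter through that group alone. In 9 of the 24, S100A8, LAG3, BASP1, PLXDC2 and IL4I1 among them, BCBL1 was not above background under either treatment. The 2 that fell in BC3 were AQP3, a water and glycerol channel, by 0.86 ± 0.15, and LRRC26, a potassium channel subunit, by 0.92 ± 0.12. Another kept LRRC26 probe, slightly dimmer, had a difference of 0.61 that was not called, against 0.95. In the 8 leave-one-out fits LVRN and GALM were called in 0, AQP3, LRRC26, BASP1, PRR20A, KYNU and CEBPA in 1, LAG3 and SYT4 in 2, IL4I1 in 3, PRTFDC1 in 5, CITED2 and PLXDC2 in 6 and FILIP1L in 8.

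**Figure D2:**
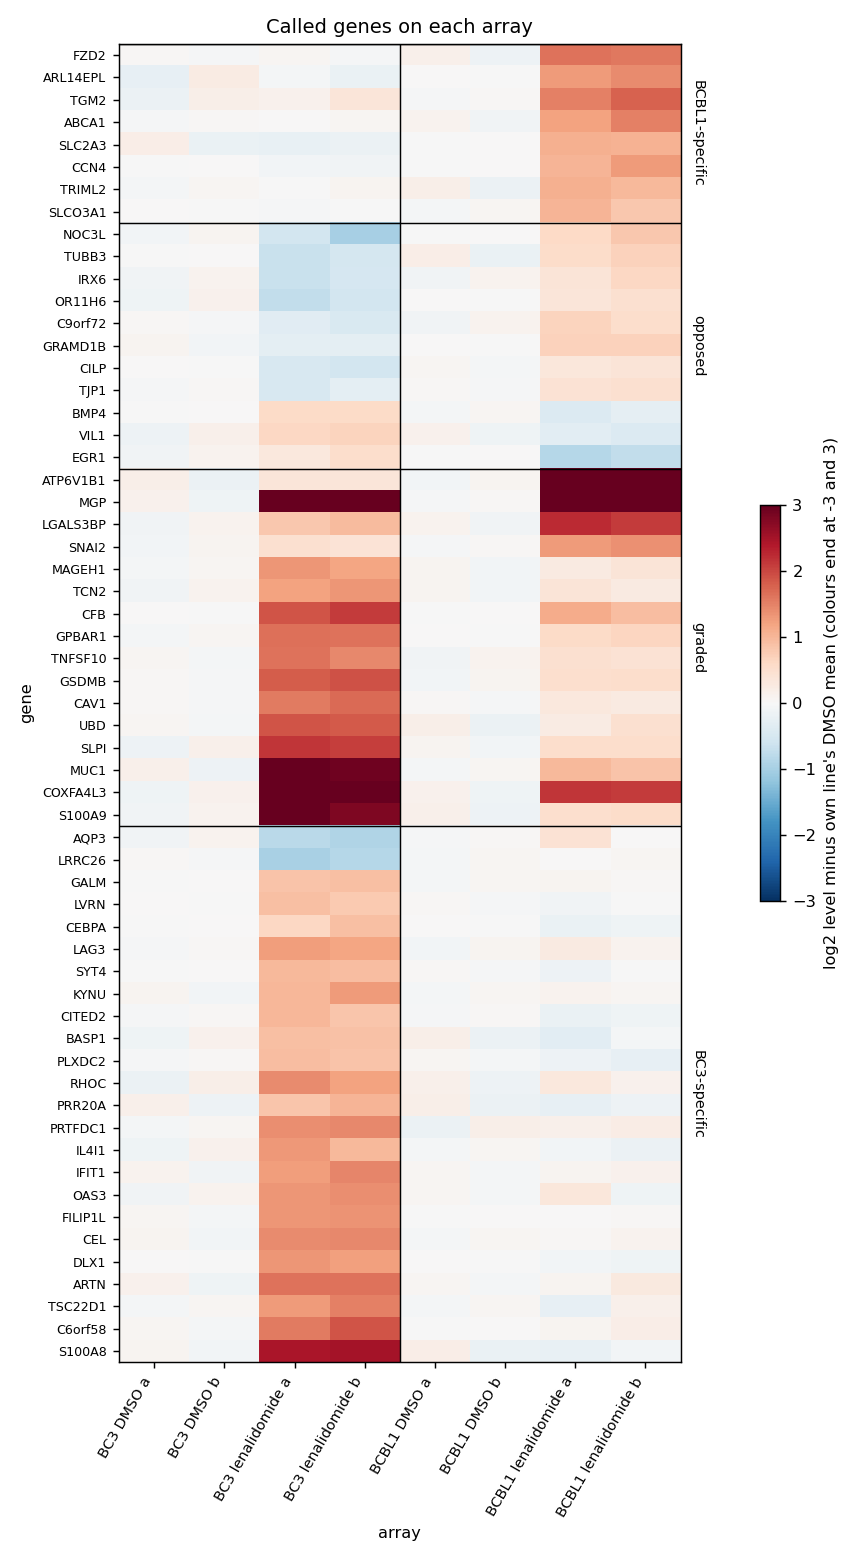
The 59 called genes in rows and the 8 arrays in columns, coloured by log2 level minus the mean of the same line's DMSO arrays, with colours ending at -3 and 3. Rows are grouped by class; the 24 BC3-specific genes change in the BC3 lenalidomide columns and the 8 BCBL1-specific genes in the BCBL1 lenalidomide columns.

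Opposed genes changed by at most 0.81 in size within a line. NOC3L, a protein of ribosome assembly and DNA replication licensing, had levels of 10.17 and 10.32 in BC3 with DMSO, 9.69 and 9.24 in BC3 with lenalidomide, 9.92 and 9.95 in BCBL1 with DMSO and 10.52 and 10.75 in BCBL1 with lenalidomide. It fell by 0.78 ± 0.15 in BC3 and rose by 0.70 ± 0.15 in BCBL1, and the arrays of the treatments did not overlap within either line. The difference was 1.48 ± 0.22 (adjusted p = 0.00728). TUBB3, a neuronal beta-tubulin, fell by 0.60 ± 0.14 in BC3 and rose by 0.62 ± 0.14 in BCBL1, a difference of 1.22 ± 0.20 (adjusted p = 0.0136). NOC3L and TUBB3 were the 2 of the 11 opposed genes called in both lines. EGR1, an immediate-early transcription factor, went the other way: it fell by 0.81 ± 0.13 in BCBL1 and had 0.42 ± 0.13 in BC3 (adjusted p = 0.0943), a difference of -1.22 ± 0.18 (adjusted p = 0.00728). IRX6, a homeobox gene, and TJP1, the tight junction scaffold ZO-1, had differences of 1.09 and 0.85, each with a lower level in BC3 and a higher one in BCBL1 under lenalidomide. OR11H6, an olfactory receptor gene, had 1.07, but was not above background in BCBL1 under either treatment, so its direction there is not measured. TJP1 was called in neither line alone, and its dimmer probe had 0.01. TJP1 was called in 0, IRX6 in 1, OR11H6 in 2, TUBB3 in 4 and NOC3L and EGR1 in 7 of the 8 leave-one-out fits. In 4 of the 11 opposed genes, OR11H6, GRAMD1B, BMP4 and VIL1, 1 line was not above background under either treatment.

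**Figure D3:**
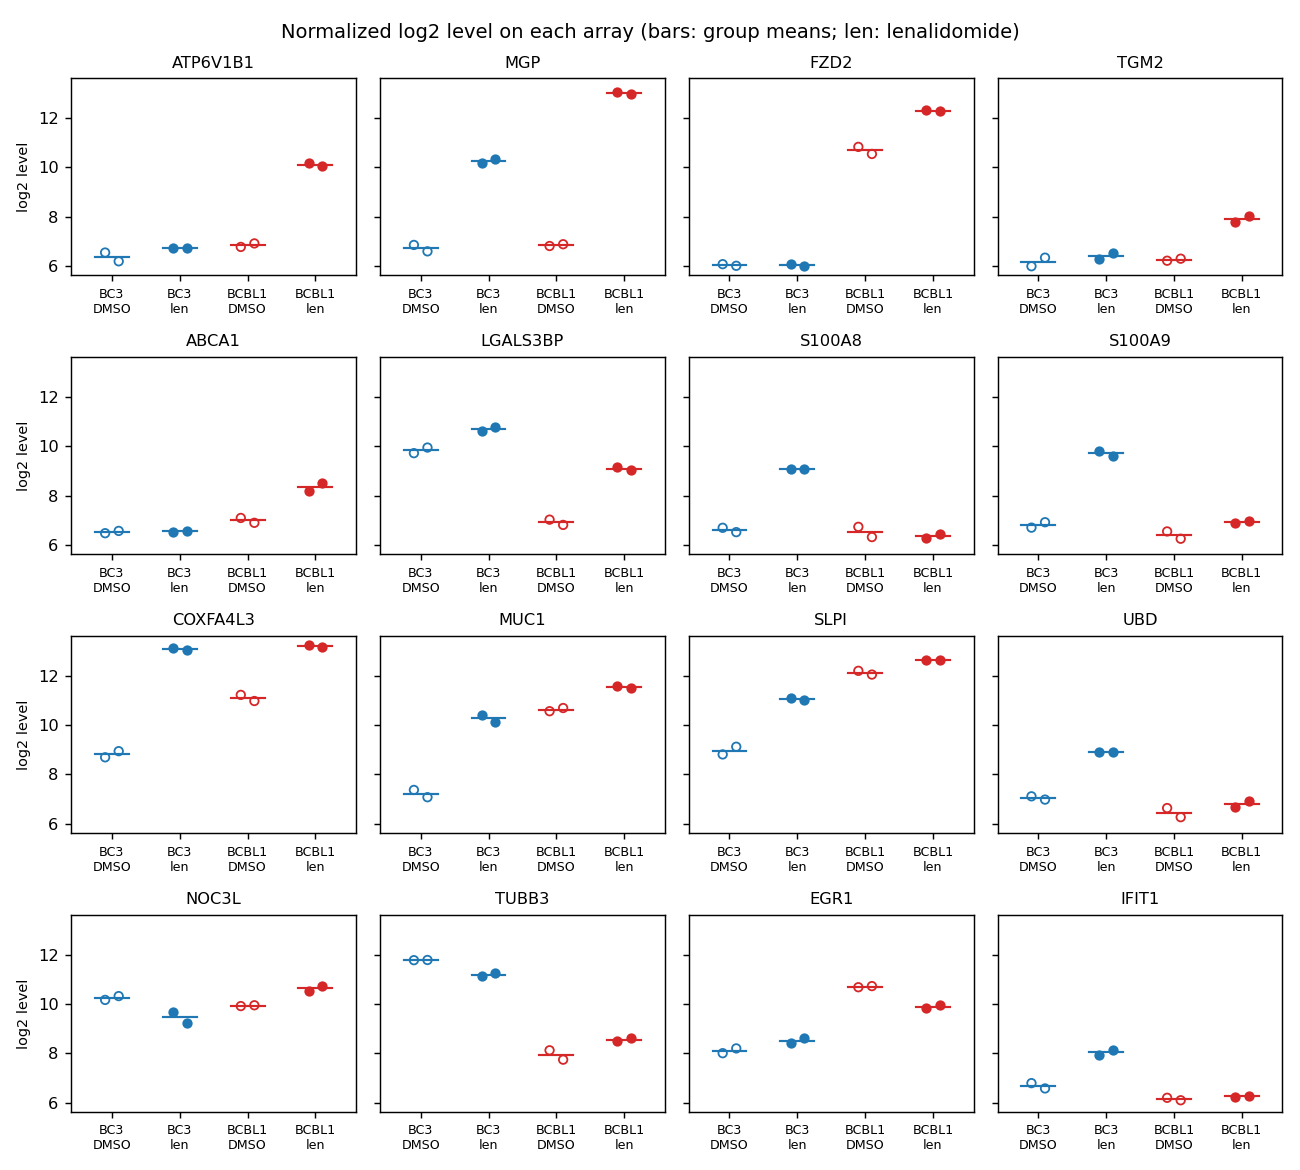
Normalized log2 level of 16 genes on each array; points are arrays, bars group means, open points DMSO and filled points lenalidomide, blue BC3 and red BCBL1. ATP6V1B1 is high on the 2 BCBL1 lenalidomide arrays only (10.16 and 10.07), S100A8 on the 2 BC3 lenalidomide arrays only (9.06 and 9.10), and COXFA4L3 reaches 13.04 to 13.25 with lenalidomide in both lines.

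Seen as gaps between the lines, 38 of the 59 genes diverged and 18 converged under lenalidomide. With only probes above background on all 8 arrays the counts were 14 and 14, so the excess of diverging genes was not seen there. The gap contrasts share arrays with the difference, so the classes describe the called genes and support nothing else. Under DMSO 40.5% of all genes tested differed between the lines, and under lenalidomide 41.7%. Among diverging genes, 16 had no called gap with DMSO and a called one with lenalidomide (opened), and 22 had a called gap that grew (widened). MGP opened from 0.12 to 2.75, S100A8 from -0.08 to -2.71 and TGM2 from 0.09 to 1.49, each as BCBL1 minus BC3. ATP6V1B1 widened from 0.48 to 3.39, FZD2 from 4.65 to 6.26, S100A9 from -0.41 to -2.79 and UBD from -0.60 to -2.10. The size of a gap is not measured where a line lay at background: FZD2 in BC3 and S100A8 in BCBL1 under both treatments, TGM2 in BC3 under both and in BCBL1 with DMSO, ATP6V1B1 in BC3 with DMSO, and S100A9 and UBD in BCBL1 with DMSO.

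Converging genes had a called gap with DMSO. In 6 no gap was called with lenalidomide (closed), and in 12 a smaller gap of the same sign was called (narrowed). A gap that was not called is not shown to be 0. COXFA4L3 had the largest of the closing gaps, 2.29 with DMSO and 0.14 with lenalidomide. TNFSF10, MAGEH1 and SLCO3A1 closed from 0.80, 1.01 and -0.73 to -0.28, 0.09 and 0.21, with a change of sign for TNFSF10 and SLCO3A1. MUC1 narrowed from 3.41 to 1.27, SLPI from 3.16 to 1.59 and CAV1 from 2.55 to 1.21, in each case with BC3 rising further from a lower start. LGALS3BP narrowed from -2.92 to -1.62 as BCBL1 rose further. TUBB3 and EGR1 narrowed from -3.85 and 2.60 to -2.64 and 1.38. In DLX1 (0.65 to -0.74) and ARTN (0.36 to -1.08) the gap changed sign with a call on both sides. OR11H6 met the same rule, but it was above background in BC3 with DMSO only, so its gap under lenalidomide sets background against background and is not read as a crossing.

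**Figure D4:**
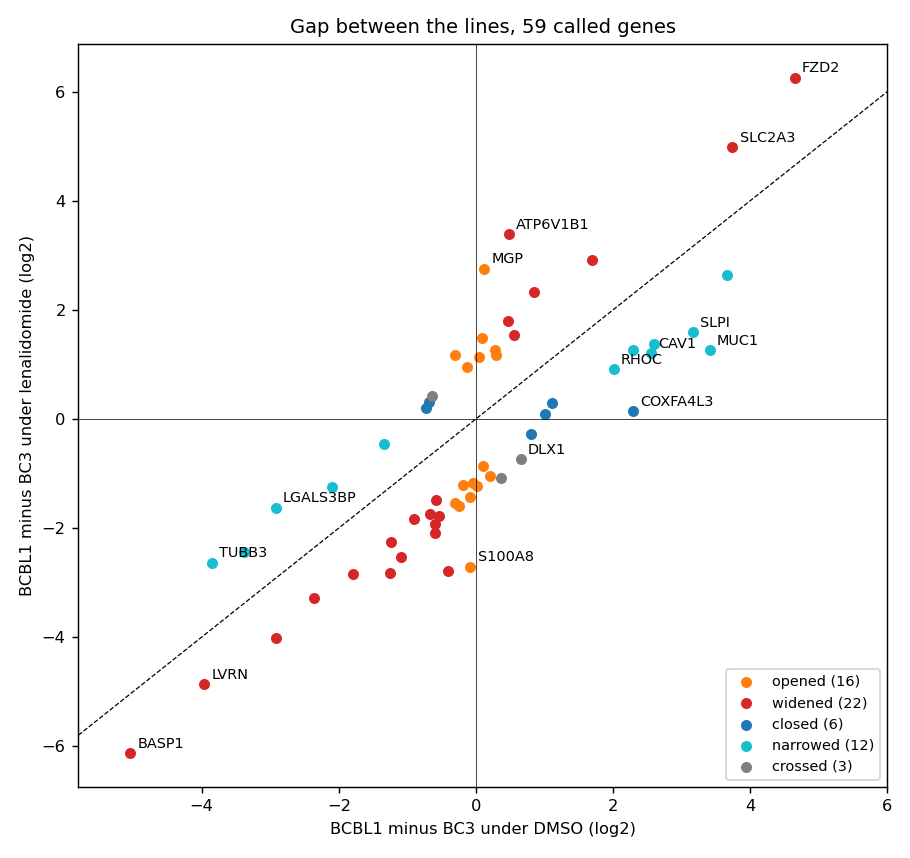
Gap between the lines, BCBL1 minus BC3 (log2), under DMSO on the horizontal axis and under lenalidomide on the vertical axis for the 59 called genes; the dashed line marks an equal gap. The 16 opened and 22 widened genes lie farther from 0 under lenalidomide, and the 6 closed and 12 narrowed genes lie nearer to it.

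Interferon-stimulated genes, which encode antiviral effectors, leaned to BC3 but few passed the test. Of 48 members tested 34 had a difference below 0 and 14 above, with a median of -0.25 against 0.002 over all genes; 2 were called lower and 1 higher (6.25% called, against 0.459% of all genes). The 2 called lower were IFIT1, which binds foreign RNA caps, and OAS3, which senses double-stranded RNA. Each call rests on 1 probe. Another IFIT1 probe and another OAS3 probe, not above background on both arrays of any group, had differences of 0.09 and 0.05. IFIT1 levels were 6.79 and 6.57 in BC3 with DMSO, 7.93 and 8.15 in BC3 with lenalidomide, 6.19 and 6.09 in BCBL1 with DMSO and 6.23 and 6.28 in BCBL1 with lenalidomide. BCBL1 was not above background for IFIT1 under either treatment, and the difference was -1.25 ± 0.18 (adjusted p = 0.00728). OAS3 levels were 6.52 and 6.74 in BC3 with DMSO, 7.95 and 8.02 in BC3 with lenalidomide, 6.70 and 6.598 in BCBL1 with DMSO and 6.996 and 6.51 in BCBL1 with lenalidomide. Only the BC3 arrays separated by treatment, and the difference was -1.25 ± 0.22 (adjusted p = 0.0254), called in 1 of the 8 leave-one-out fits and in all 8 for IFIT1. The 1 member called higher was LGALS3BP. ISG15, the ubiquitin-like modifier, had 0.14 in BC3 and -0.86 in BCBL1, with a difference that was not called (adjusted p = 0.0701), and IFITM1 had 0.12 and 1.04, a difference of 0.91 ± 0.20 (adjusted p = 0.0922). The entry-restriction genes IFITM3 and IFITM2 rose in both lines, with differences of 0.14 (95% interval -0.21 to 0.50) and 0.26 (-0.21 to 0.72).

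The stretches before IFIT1, OAS3 and LGALS3BP are shown because these are the 3 called members of the list and their differences have both signs. The interferon response element core (GAAA, any 2 bases, GAAA), or its reverse complement, is in capitals. It occurred at 2 places before IFIT1, at 2 before OAS3 and at 1 before LGALS3BP. Among 38 interferon-stimulated genes with a listed promoter 27 held it (71.1%), against 3.65% of all promoters and 5 of 44 called genes (11.4%). The ETS-IRF motif (GGAA, any 2 bases, GAAA) occurred in 1 of the 44 (2.27%, against 2.84% of all), the AP-1 motif TGANTCA in 3 (6.82% against 7.76%), the NF-kB motif (GGGA, any 4 bases, CC) in 13 (29.5% against 25.1%) and TGGGAA in 10 (22.7% against 24.3%), each on either strand. Matches of the NF-kB motif and TGGGAA overlapped in OAS3. For the 10 genes with ordinary symbols and the highest differences 4 had a promoter in the table. Of these 4, 3 held the NF-kB motif (75%, against 25.1% of all), 1 the interferon response element core and 0 TGGGAA. Among the 9 promoters of the lowest differences 1 held the NF-kB motif (11.1%). No test was made on so few promoters.
IFIT1 (chr10:89392373-89392622, plus strand): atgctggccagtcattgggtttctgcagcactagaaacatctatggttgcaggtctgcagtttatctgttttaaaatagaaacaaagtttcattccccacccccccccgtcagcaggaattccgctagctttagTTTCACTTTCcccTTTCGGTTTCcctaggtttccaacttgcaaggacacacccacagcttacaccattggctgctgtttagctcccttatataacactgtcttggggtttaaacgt
OAS3 (chr12:112938224-112938473, plus strand): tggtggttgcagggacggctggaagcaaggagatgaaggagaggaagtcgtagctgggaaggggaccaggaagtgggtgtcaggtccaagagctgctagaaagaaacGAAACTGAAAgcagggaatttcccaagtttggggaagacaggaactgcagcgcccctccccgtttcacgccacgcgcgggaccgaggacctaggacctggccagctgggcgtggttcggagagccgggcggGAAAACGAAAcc
LGALS3BP (chr17:78979924-78980173, minus strand): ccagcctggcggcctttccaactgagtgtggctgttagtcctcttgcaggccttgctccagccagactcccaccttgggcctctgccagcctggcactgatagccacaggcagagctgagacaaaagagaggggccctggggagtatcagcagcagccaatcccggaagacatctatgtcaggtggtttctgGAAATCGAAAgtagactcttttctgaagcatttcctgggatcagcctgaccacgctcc

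No difference was called for the drug's target and its axis. Of 14 genes of the cereblon ligase, its substrates and the IRF4-MYC axis 0 were called by limma, 0 had an unadjusted p under 0.05, and the median difference was 0.02. IKZF1 had a difference of 0.42 with a 95% interval of -0.01 to 0.85, and IKZF3 of 0.26 with -0.25 to 0.77. The values of IRF4, MYC and CRBN, which encodes cereblon, were 0.04 (-0.44 to 0.53), -0.01 (-0.40 to 0.38) and -0.05 (-0.42 to 0.32). A dimmer MYC probe gave -0.77 in the limma fit over probes (adjusted p = 0.242). A value whose interval holds 0 is not shown to be alike in the lines.

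Among genes of other cell types, 2 of 8 myeloid genes tested were called (25%, against 0.459% of all genes), S100A8 and S100A9, both lower in the difference, and the list's median was -0.41. The summed normalized intensity of the 15 myeloid genes on the array was 695 to 743 in BC3 with DMSO, 2085 to 2222 in BC3 with lenalidomide, 654 to 674 in BCBL1 with DMSO and 679 to 683 in BCBL1 with lenalidomide. S100A8 and S100A9 are part of this sum, so it is no separate support for a change of the list. Of the 15, 6 were above background on both arrays in each BC3 group, 3 in BCBL1 with DMSO and 4 in BCBL1 with lenalidomide. ITGAM was above background in BC3 with lenalidomide only, and CD14 in every group but BCBL1 with DMSO. Other members went the other way: CD163 was above background in BC3 with DMSO only, and FCN1 in every group but BCBL1 with lenalidomide. MPO was above background in the BCBL1 groups only. CD68, a macrophage marker, rose by 0.67 ± 0.14 in BC3 and had -0.24 ± 0.14 in BCBL1, a difference of -0.92 ± 0.20 (adjusted p = 0.0815). CSF1R, LYZ, ITGAX, S100A12, FCGR1A, VCAN and MRC1 were not above background on both arrays of any group. Of 15 epithelial keratin, mucin and junction genes tested 3 were called (20%), MUC1 and SLPI lower and TJP1 higher in the difference, with a median of -0.37. KRT80 and KRT8, keratin genes that rose in both lines, had differences of -0.75 ± 0.19 (adjusted p = 0.149) and -0.37 ± 0.16 (adjusted p = 0.456). The summed intensity of the 22 epithelial genes on the array was higher with lenalidomide in both lines, with 7765 and 8249 on the BC3 DMSO arrays, 11475 and 12380 with lenalidomide, 6721 and 7063 on the BCBL1 DMSO arrays and 10709 and 10929 with lenalidomide. The bright genes MUC1 and SLPI are part of this sum, so it is not separate from their rises described above. Of the 22, 13 were above background on both arrays in each BC3 group, 9 in BCBL1 with DMSO and 12 in BCBL1 with lenalidomide, where CDH1, EPCAM, KRT80 and TJP1 were added and CLDN4 was no longer among them. CDH1, the adhesion protein E-cadherin, rose by 1.04 ± 0.14 in BC3 and 0.59 ± 0.14 in BCBL1. KRT7, KRT19, CLDN3, OCLN, DSP, ST14 and ESRP1 were not above background on both arrays of any group. The part of other cells in these results was not tested.

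In the other lists described here 1 gene at most was called, so each share below rests on 1 gene. Over all genes 0.459% were called in the difference. CFB was the 1 of 13 complement and acute-phase genes (7.69%), CAV1 of 19 plasma cell and immunoblast markers (5.26%), TNFSF10 of 22 BCL2 family and death receptor genes (4.55%) and ABCA1 of 25 cholesterol and fatty acid genes (4%). EGR1 was the 1 of 26 immediate-early genes (3.85%), SLC2A3 of 27 glycolysis and hypoxia genes (3.70%) and MGP of 10 stromal and endothelial genes (10%). Over all genes 10.3% had an unadjusted p under 0.05. By limma 0 genes were called among 37 MYC-induced growth genes, 43 DNA replication and mitosis genes, 28 ribosomal protein genes, 24 NF-kB targets and 20 p53 targets, with 3, 5, 0, 6 and 3 at an unadjusted p under 0.05. The same held for 15 MHC class II genes, 19 of MHC class I, 16 costimulatory genes, 9 CDK inhibitors and cyclins and 30 cytokine and receptor genes, with 6, 2, 4, 5 and 3. It held too for 24 unfolded protein stress genes, 8 metallothionein and zinc genes, 18 cancer-testis genes, 13 T and NK cell genes and 6 B-cell identity genes, with 3, 2, 4, 6 and 0. Medians of these 15 lists ran from -0.08 to 0.14.

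**Figure D5:**
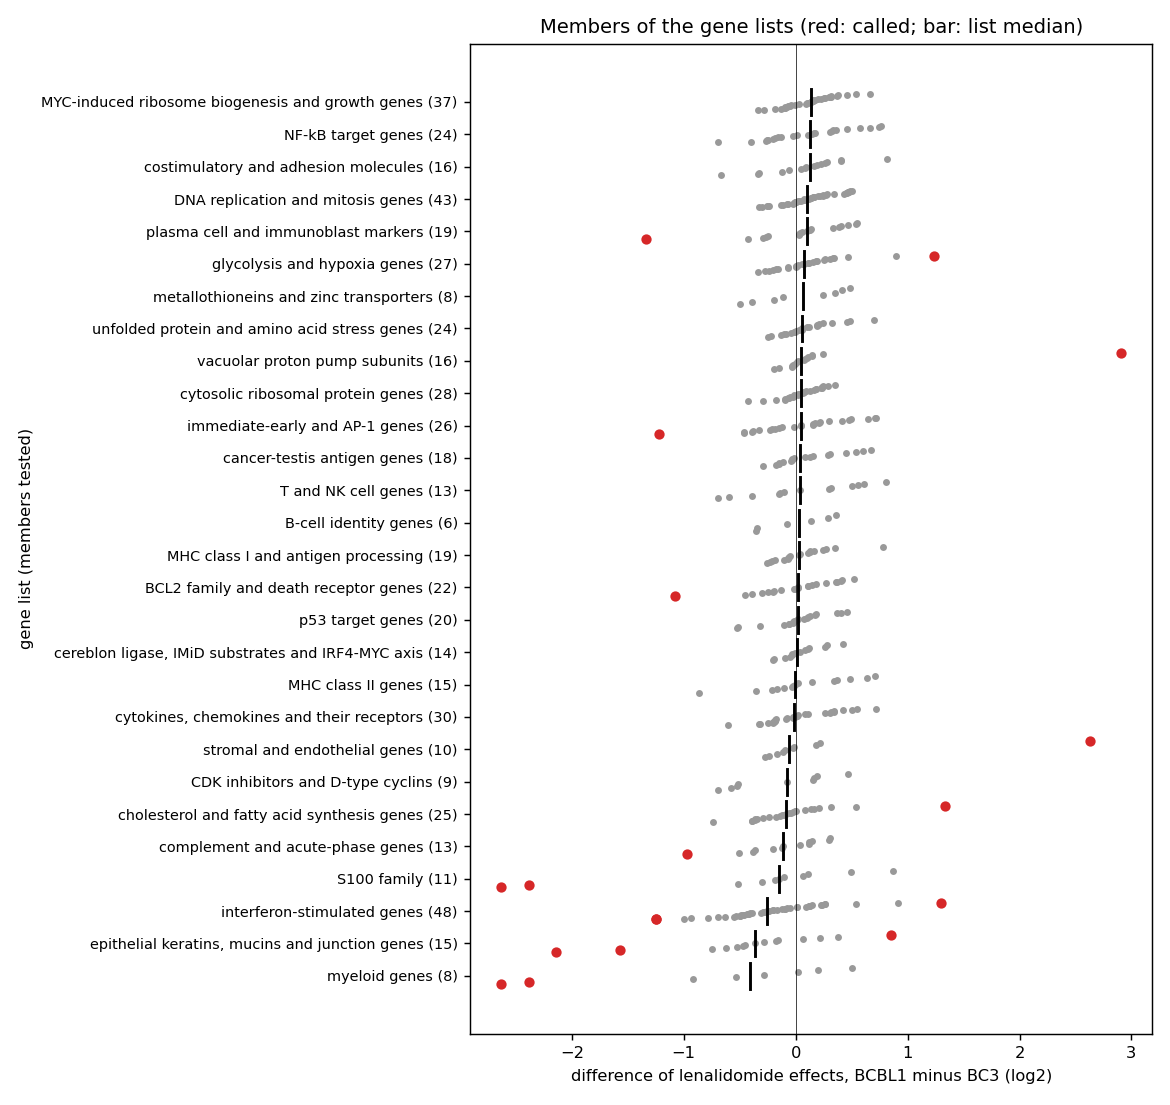
Difference of lenalidomide effects, BCBL1 minus BC3 (log2), for each tested member of 28 gene lists; red points are called genes and black bars list medians. The medians run from -0.41 (myeloid genes) to 0.14 (MYC-induced growth genes).

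A call in 1 line alone seldom amounted to a difference between the lines that could be shown. In BC3 253 genes were called whose unadjusted p in BCBL1 was 0.05 or more, and 24 of them (9.49%) were called in the difference. In BCBL1 the numbers were 139 and 8 (5.76%). Of 164 genes called in both lines in the same direction 8 were called in the difference, and for 145 the 95% interval of the difference lay within -1 and 1. The median half-width of that interval over all genes was 0.40, and no difference under 0.83 in size was called with 2 arrays a group. EMP1, a membrane protein gene, rose by 1.78 in both lines, with a difference of 0.002 and an interval of -0.67 to 0.67, and MUC13, another mucin gene, had -0.02 with -0.38 to 0.34.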

How the data were processed

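Total RNA was labelled with Cy3 and hybridised to 8 Illumina 1-colour bead arrays, per the labels. One deposited table holds probe intensity values without normalization between arrays, and the authors' second table holds log2 values. Limma was used, per the submitters' processing notes; its function and offset were not given in the sources.

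Intensities were corrected with limma's normexp (offset 50), quantile-normalized and taken to log2 (R 4.3.3, limma 3.58.1). The offset understates changes of dim genes. The intensity columns carry no replicate number, so a group's arrays are named a and b. Of 47322 probes (1 listed at 0 was left out), 24523 (51.8%) were above background (a normal tail of 0.05 around the mode of the array's signals) on both arrays of at least 1 group. Through the platform annotation and RefSeq 30113 probes had 1 symbol, 8 several and 17201 none; the brightest kept probe stood for each of 12864 genes.

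A mean per group was fitted to the 8 arrays with eBayes (4 residual and 8.74 prior degrees of freedom), and Benjamini-Hochberg adjustment was made within each contrast. ± is the standard error with n = 2 arrays per group, and 95% intervals use the moderated t quantile. "At least N-fold" sets the brighter group against the lowest signal above background, or the gene's own signal where that is higher. The fit was tested on simulated data.

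Genes named, among called genes with ordinary symbols (no LOC, orf or similar placeholder names), were the 10 with the largest difference in each direction, up to 4 per class and per list, and IKZF1, IKZF3, IRF4, MYC and CRBN; any other gene was chosen after its values were seen. Members, lists and rules were chosen with earlier results of these data known. The result of 1 gene list is not reported here. The replicate numbers of the log2 table did not pair samples: replicate differences of the groups correlated with r of -0.08 to 0.05 across genes.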

Additional observations from a re-analysis of the deposited data

Results flagged for a closer look

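The lenalidomide effect differed between BCBL1 and BC3, by limma's test of the difference itself, for the genes below, in the fit as reported. Of these 35 genes 33 lost the call in at least 1 other setting beside leaving out arrays; TJP1 kept it in 2 of 12, RHOC in 2 of 13, AQP3 in 5 of 13 and MAGEH1 and SLCO3A1 in 6 of 13. TGM2 and OR11H6 were above background in 1 group only. The log2 differences, BCBL1 minus BC3, were 1.604 for FZD2, 1.48 for ARL14EPL, 1.39 for TGM2, 1.33 for ABCA1, 1.24 for SLC2A3, 1.23 for CCN4 and 0.94 for SLCO3A1 among BCBL1-specific genes. Graded genes had 2.91 for ATP6V1B1, 2.63 for MGP, 1.30 for LGALS3BP, -0.92 for MAGEH1, -0.97 for CFB, -1.08 for TNFSF10, -1.34 for CAV1, -1.50 for UBD, -1.57 for SLPI, -2.14 for MUC1, -2.15 for COXFA4L3 and -2.38 for S100A9. Among opposed genes the values were 1.48 for NOC3L, 1.22 for TUBB3, 1.09 for IRX6, 1.07 for OR11H6, 0.85 for TJP1 and -1.22 for EGR1. BC3-specific genes had 1.08 for AQP3, 0.95 for LRRC26, -1.10 for RHOC, -1.25 for IFIT1, -1.25 for OAS3, -1.35 for CEL, -1.39 for DLX1, -1.44 for ARTN, -1.44 for TSC22D1 and -2.63 for S100A8.

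Some probes that the comparisons by gene did not use were also called. Of 6946 probes above background that had no single gene symbol, 7 (0.101%) were called in the difference in a limma fit over all 24523 kept probes, 3 higher and 4 lower in BCBL1. That fit called 63 of the 24523 kept probes, a larger share, so these 7 are not read as a signal of their own.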

How the results depend on the processing

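The counts of genes called, called higher in BCBL1, line-specific, opposed, converging and diverging were 59, 22, 32, 11, 18 and 38. In that order they were 21, 8, 9, 3, 5 and 12 with offset 16, 72, 24, 44, 8, 24 and 47 with offset 100, 44, 13, 25, 5, 13 and 28 with median scaling and 53, 22, 28, 10, 19 and 31 with cyclic loess. On the authors' log2 table they were 30, 11, 16, 5, 8 and 18, and 9, 3, 5, 1, 2 and 6 with the replicate number as a block. Whether these replicate numbers pair the samples cannot be told from the labels. They were 44, 16, 24, 7, 12 and 30 with no filter, 30, 9, 14, 4, 14 and 14 with probes above background on all 8 arrays and 37, 12, 16, 6, 15 and 20 with probes above background in both lines. The mean of a gene's probes gave 60, 17, 32, 12, 16 and 42, a call on all its probes 31, 13, 17, 6, 6 and 24, trend and robust moderation 79, 29, 48, 10, 29 and 47 and array weights 58, 22, 31, 11, 17 and 38. Leaving out 1 array gave 25 to 45, 10 to 16, 11 to 25, 3 to 10, 5 to 14 and 16 to 29. Fewer genes tested, and none dim in 1 line, is what the stricter filters change by construction; the cause of the other changes was not tested. Of the 59 genes 20 were also called with offset 16, 27 on the authors' table and 41 with median scaling, which moved the median difference of all genes to -0.09.

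None of the 35 named called genes changed sign in the fits on log2 levels, and ATP6V1B1 and S100A8 kept their calls in all of these that tested them. On normalized linear intensity, where no call was made, the difference turned to -344 units for LGALS3BP, 340 for SLPI, 299 for MUC1 and 304 for MYC. On deposited intensity, a setting chosen after seeing the data, it turned to -386 for LGALS3BP, -376 for IRF4 and 37.4 for MYC. Among genes that were not called, IRF4 turned to -0.0741 with median scaling and CRBN to 0.0752 with the mean or median of its probes. Without single arrays IRF4 ran from -0.217 to 0.3004, MYC from -0.126 to 0.1052 and CRBN from -0.118 to 0.01952.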
